A study of Homo sapiens with 8 samples.

Results

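The genes of the epidermal growth factor (EGF) receptors and their ligands were followed by RNA-seq in MCF10A cells, a nontransformed human mammary epithelial line, after 7 days in 3D culture. The 10 genes were chosen by name, 3 receptors (EGFR, ERBB2, ERBB3) and 7 ligands (AREG, EREG, HBEGF, TGFA, BTC, EPGN, NRG1), out of the 25369 genes in the deposited table. The choice applied no cut on measured values, but it was made with earlier results of these data known. Cells were embedded in 4 hydrogels, with 2 libraries for each gel. Soft IPN and stiff IPN were interpenetrating networks of alginate and reconstituted basement membrane (rBM), of which the stiff form was cross-linked with calcium. By their labels, soft col:rBM was a mixture of type I collagen (col-1) and rBM, and stiff col was a col-1 gel. The study gives the same final concentration of rBM for all experiments, and the rBM content of stiff col could not be read here. The soft and stiff collagen gels may therefore differ in col-1 density and in rBM as well as in stiffness. The contrast of stiff col with stiff IPN changed col-1 and alginate, and possibly rBM. All gels held the same untreated line, and its complete medium contains EGF, insulin, hydrocortisone, cholera toxin and horse serum. The study describes 2 independent trials, which the replicate numbers of the labels were taken to mark.

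The ERBB receptors are tyrosine kinases that work in pairs. A ligand that binds the outer part of EGFR lets it pair with another EGFR or with ERBB2, which has no known soluble ligand of its own, while ERBB3 binds neuregulins, has a weak kinase and signals through its partner. AREG, EREG, HBEGF, TGFA, BTC and EPGN are made as membrane-anchored precursors and are released by ADAM proteases, and in mammary epithelium such ligands act on the cell that makes them and on its neighbours. Signals from the receptors run through RAS to the kinase ERK and through PI3-kinase to AKT.

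Between 13044339 and 18555929 reads per library lay on genes. Values are normalized counts, the read counts multiplied by 1 factor per library. A floor of 3 reads equals 2.41 to 3.73 normalized counts, a limit that covers counting error only. All 6 basal mammary markers and all 4 epithelial markers were at 10 or more in every library, with KRT5 between 7417 and 44022 normalized counts. Of the markers of other cells, the leukocyte gene PTPRC was at 0 in all 8 libraries, PDGFRA was at 0 to 5, LUM at 0 to 1 and PECAM1 at 2 to 32. The summed fibroblast list was at 531 to 1226, nearly all of it DCN. CD68 was detected in all libraries and moved with gel and trial, at 4222 and 2092 in soft IPN, 1220 and 324 in stiff IPN, 5017 and 1348 in soft col:rBM and 4360 and 990 in stiff col. Only the MCF10A line was embedded, and whether CD68 bears on the results below was not tested. No 2 of the libraries held identical values.

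Sequence bears on how far AREG can be read. AREG lies at chr4:75310853-75320722 (hg19, plus strand), and its copy AREGB, which has no row in the table, lies at chr4:75480629-75490486, 170 kb further on. Over 9847 aligned bases the copies were 99.9% identical, and only 1 of their 10 substitutions falls in an exon. It is G30A, counted from 1 at the first base of the start codon, at chr4 position 75311092 in AREG and 75480868 in AREGB. The first 61 coding bases of each copy are shown here because they hold that base, which is in capitals.
AREG, chr4:75311063-75311123 (hg19): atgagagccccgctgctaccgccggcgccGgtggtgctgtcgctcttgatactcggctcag
AREGB, chr4:75480839-75480899 (hg19): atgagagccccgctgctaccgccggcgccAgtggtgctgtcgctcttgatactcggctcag
Of the 1348 windows of 50 bases in the AREG exons, 97.6% also occur in AREGB. The authors removed reads that mapped to several places, so the share of AREG reads that was lost is unknown. AREG was therefore left out of the ranking of members by level. In the ligand mixture, values with AREG are given only beside those without it. In the other 9 members between 0.0% and 4.0% of such windows occur elsewhere in the genome. The exons of EGFR also overlap the gene EGFR-AS1 on the other strand, and the exons of ERBB2 overlap the genes PGAP3 and MIEN1. On the same strand, exons of ERBB3 overlap the gene ENSG00000257411, and exons of NRG1 overlap the genes ENSG00000286131 and RP11-1002K11.1. Whether exons or introns of those other genes lie in the overlaps was not tested. The library kit does not mark strand, so reads from any stretch where exons of both genes overlap cannot be told apart.

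Promoter sequence is shown for the genes on which the comparisons turn, HBEGF, EPGN and AREG. The windows are the 250 bases before the start of each gene, taken from RefSeq (GRCh38.p14), where 8 of the 10 members had an entry. Capitals mark matches to 4 motifs that were searched on both strands. They were the AP-1 site TGANTCA, the cAMP response element TGACGTCA, the CCAAT box and the TATA box, read as TATAAA.
HBEGF, chr5:140346604-140346853 (GRCh38.p14, minus strand): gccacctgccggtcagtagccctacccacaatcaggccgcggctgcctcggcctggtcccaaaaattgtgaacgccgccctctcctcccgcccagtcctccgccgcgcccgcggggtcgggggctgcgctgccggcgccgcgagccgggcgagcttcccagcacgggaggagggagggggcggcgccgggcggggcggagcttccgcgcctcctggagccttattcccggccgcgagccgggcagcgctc
EPGN, chr4:74308220-74308469 (GRCh38.p14, plus strand): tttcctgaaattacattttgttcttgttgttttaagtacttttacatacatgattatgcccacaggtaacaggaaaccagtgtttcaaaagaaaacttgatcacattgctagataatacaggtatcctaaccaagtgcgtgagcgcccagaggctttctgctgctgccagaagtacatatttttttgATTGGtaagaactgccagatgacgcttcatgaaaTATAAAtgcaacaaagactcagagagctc
AREG, chr4:74444886-74445135 (GRCh38.p14, plus strand): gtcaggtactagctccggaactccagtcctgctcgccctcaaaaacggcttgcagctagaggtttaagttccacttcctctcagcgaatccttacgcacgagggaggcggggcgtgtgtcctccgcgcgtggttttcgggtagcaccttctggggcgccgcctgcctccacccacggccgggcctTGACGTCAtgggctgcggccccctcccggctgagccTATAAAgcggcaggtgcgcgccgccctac
The AREG window holds TGACGTCA 65 bases before the start and TATAAA 29 bases before it. The EPGN window holds TATAAA at the same distance and CCAAT, written ATTGG on this strand, 63 bases before the start. The HBEGF window holds none of the 4 motifs. Among all 35116 windows of the table, TGANTCA was found in 6.6%, TGACGTCA in 1.6%, CCAAT in 32.0% and TATAAA in 10.7%. The windows also differ in base composition, with 76.4% G and C for HBEGF, 65.2% for AREG and 38.0% for EPGN, against a median of 58.0% over all windows. These are matches of letters, with no measurement of binding.

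Next, levels were compared between the members. Per kb of annotated exon, and averaged over the 8 libraries, TGFA stood highest at 355 normalized counts, followed by EPGN (260), EGFR (183), EREG (134), HBEGF (126), ERBB2 (85.0), BTC (9.0), ERBB3 (7.41) and NRG1 (2.01). Neighbours in this order overlapped widely: EGFR ranged from 86.8 to 263 per kb, EREG from 74.7 to 222 and HBEGF from 19.4 to 357. BTC, ERBB3 and NRG1 lay below every value of the other genes in all 8 libraries. All exons annotated for a gene were counted in its length, so a gene that uses few of them is placed too low.

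**Figure D1:**
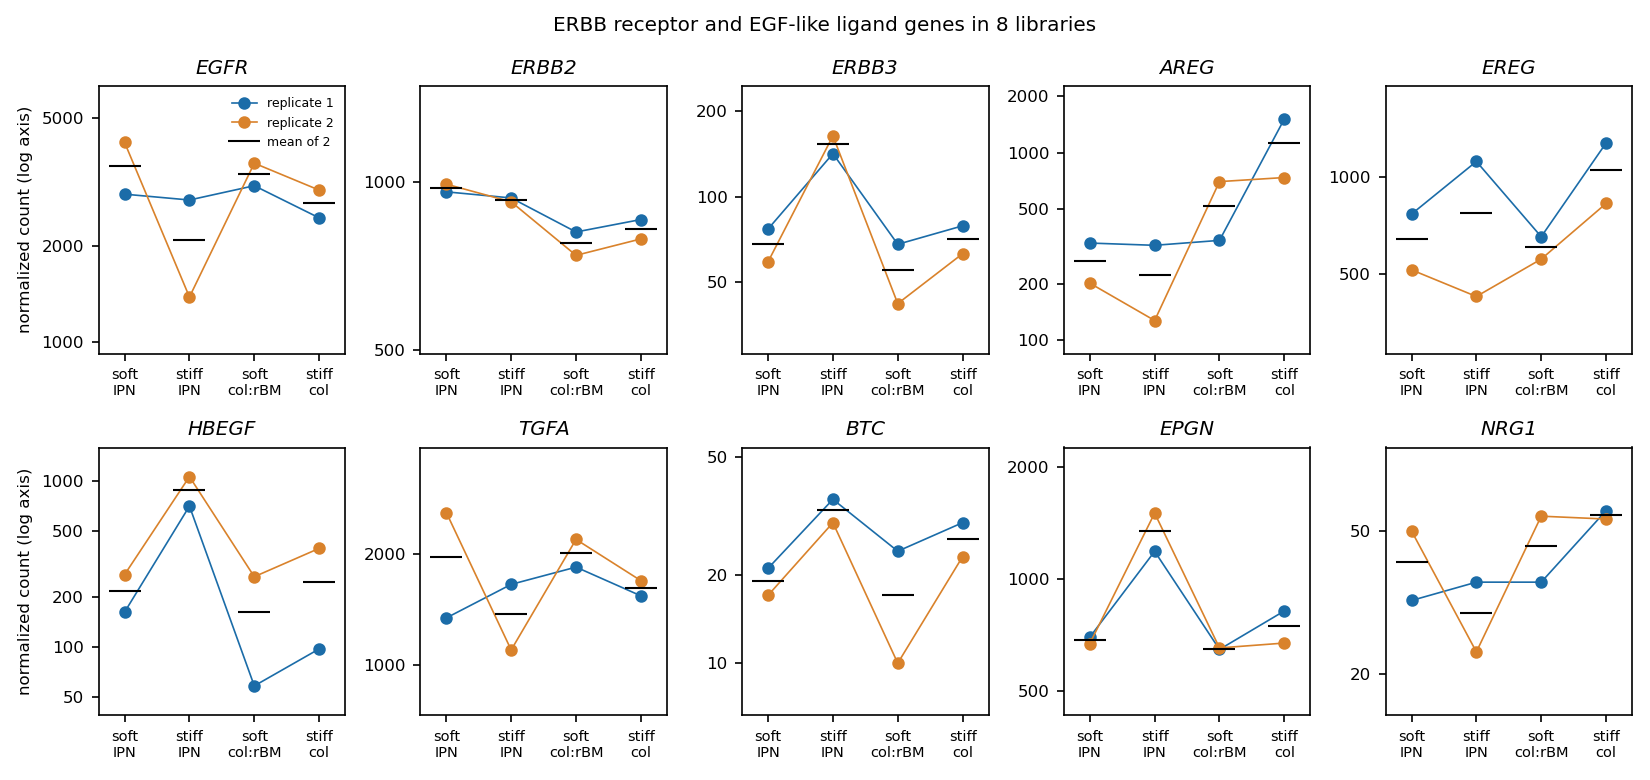
Normalized count (log axis, a separate scale for each gene) of the 10 genes in the 4 gels, with replicate 1 and replicate 2 joined by lines and a black dash for their mean. HBEGF, EPGN and ERBB3 have both stiff IPN libraries above all other libraries, whereas EGFR, TGFA and NRG1 are low in stiff IPN only in replicate 2.

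Across gels, tests used limma on log2(normalized count + 1) over 13349 genes, with Benjamini-Hochberg adjustment and a threshold of 0.05. Without a term for the trial, 0 of the 10 genes were called in any comparison between gels, against a background of 0.0% of all genes tested. The study, which used DESeq2, reports genes that differed between soft and stiff IPN and between stiff IPN and stiff col. The background of 0.0% is therefore a result of limma on these log values and does not mean that no gene differed. The reason for the difference between the methods was not tested. At an unadjusted p under 0.05, 4 of the 10 passed between stiff and soft IPN (background 9.33%), 4 between stiff col and stiff IPN (6.28%), 0 between stiff col and soft col:rBM (1.05%) and 0 between soft col:rBM and soft IPN (1.42%). The replicate numbers pair the libraries, and with the replicate block 2 of 10 were called between stiff and soft IPN, HBEGF and EPGN, both higher (background 3.83% in either direction, 1.69% higher). Between stiff col and stiff IPN 3 of 10 were called with the block, AREG higher (background 1.0% higher) and HBEGF and EPGN lower (1.47% lower, 2.47% in either direction). Between stiff col and soft col:rBM, and between soft col:rBM and soft IPN, the block called 0 of the 10 and 0.0% of all genes, with 2 of 10 (background 3.72%) and 1 of 10 (4.76%) at an unadjusted p under 0.05. In the comparisons of stiff IPN with soft IPN and with stiff col the block gave 4 of 10 (24.7%) and 5 of 10 (18.9%) at that unadjusted level, and 2.13% of all genes were called lower in stiff than in soft IPN. Without stiff IPN replicate 1 the block called 5 of 10 between stiff and soft IPN, adding EGFR, ERBB3 and TGFA, and 7 of 10 between stiff col and stiff IPN, adding EGFR, ERBB3, EREG and NRG1, but in those fits 20.1% and 16.5% of all genes were called. The comparisons share libraries: stiff IPN enters both in which calls were made. RNA was taken from whole gels, in which a change in the cells that make a transcript and a change in the transcript per cell cannot be told apart.

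**Figure D2:**
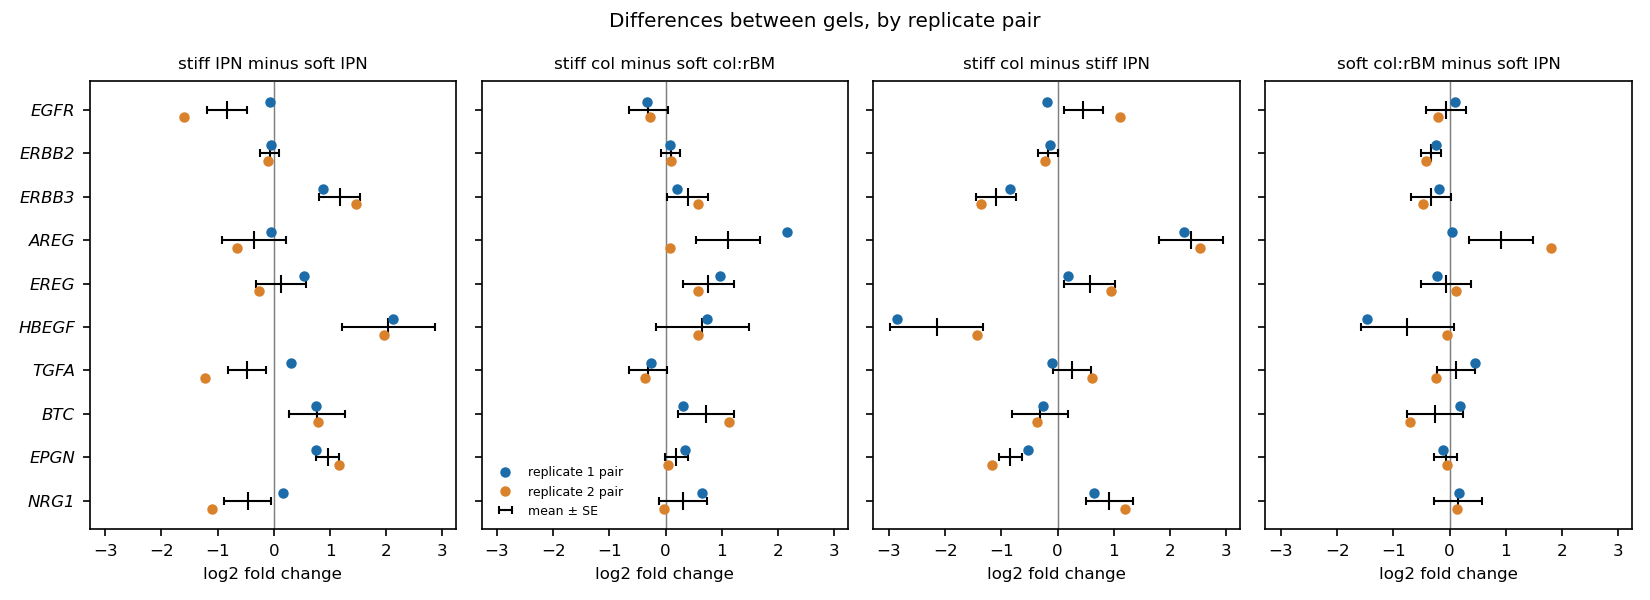
Log2 fold change (x axis) of each gene in 4 comparisons between gels. Dots give the replicate 1 pair and the replicate 2 pair, the tick their mean and the bar its standard error without the block. For HBEGF the pairs lie at 2.12 and 1.96 between stiff and soft IPN and at -2.85 and -1.44 between stiff col and stiff IPN.

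HBEGF, a ligand that binds heparan sulfate and activates EGFR and ERBB4, had the widest range of the 10 genes, 18.4-fold between its highest and lowest library. It was at 162 and 273 normalized counts in soft IPN, 708 and 1067 in stiff IPN, 58 and 265 in soft col:rBM and 97 and 393 in stiff col. Both stiff IPN libraries stood above all 6 others, and the other 3 gels overlapped. Stiff IPN was 4.12-fold higher than soft IPN (log2 difference 2.04 ± 0.39, SE with the block), with an adjusted p (limma) of 0.519 without the block and 0.0377 with it. Stiff col was 4.43-fold lower than stiff IPN (log2 difference -2.15 ± 0.39, SE with the block), with an adjusted p of 0.731 without the block and 0.0355 with it (limma). Among all 4 gels together HBEGF was called with the block (limma F test, adjusted p = 0.0418, background 1.56%) and not without it (adjusted p = 0.949). At an unadjusted p under 0.05 that F test passed 4 of the 10 without the block (background 5.24%) and 4 with it (19.8%). Leaving out either soft IPN library ended the block's call between stiff and soft IPN. Without soft IPN replicate 2 no gene at all was called there, so a loss in that fit, here and below, is not particular to the gene. The block's call of HBEGF between stiff col and stiff IPN was lost without soft IPN replicate 1 or 2 or stiff col replicate 1 or 2. With the block that difference was -1.73 without stiff col replicate 1 and -2.56 without stiff col replicate 2, and without the block it was -1.14 and -3.15.

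HBEGF also differed between the replicates within gels. Replicate 2 exceeded replicate 1 in all 4 gels, by 1.69-fold in soft IPN, 1.51-fold in stiff IPN, 4.57-fold in soft col:rBM and 4.05-fold in stiff col. The difference between trials was called in the fit with gel as a term (log2 1.38 ± 0.28, limma adjusted p = 0.0115), as it was for 27.1% of all genes. EREG was the other member called between trials, lower in replicate 2 (log2 -0.70 ± 0.18, adjusted p = 0.0233, limma). Leaving out a stiff col library ended both trial calls, and leaving out a soft IPN library ended that of EREG.

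EPGN encodes epigen, a low-affinity EGFR ligand. It was at 699 and 672 normalized counts in soft IPN, 1188 and 1505 in stiff IPN, 648 and 654 in soft col:rBM and 822 and 674 in stiff col. The replicates of soft IPN and of soft col:rBM were close, with a ratio of replicate 2 to replicate 1 of 0.96 and 1.01, and both stiff IPN libraries lay above the other 6. Stiff IPN exceeded soft IPN 1.95-fold (log2 0.96 ± 0.17, SE with the block), with a limma adjusted p of 0.412 without the block and 0.0338 with it. Stiff col lay 1.80-fold below stiff IPN (log2 -0.84 ± 0.17), with an adjusted p of 0.37 without the block and 0.0476 with it. The first call was lost without soft IPN replicate 1 or without soft IPN replicate 2 (adjusted p up to 0.385, limma). The second was kept in only 1 of 8 fits with a library left out, that without stiff IPN replicate 1, and its adjusted p reached 0.276.

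AREG, amphiregulin, is a ligand of EGFR needed for growth of the mammary ducts. It stood at 329 and 201 normalized counts in soft IPN, 320 and 127 in stiff IPN, 340 and 700 in soft col:rBM and 1511 and 736 in stiff col. Both stiff col libraries were above all others, but stiff col replicate 2, at 736, was close to soft col:rBM replicate 2, at 700. Stiff col exceeded stiff IPN 5.21-fold (log2 2.38 ± 0.48, SE with the block), with a limma adjusted p of 0.402 without the block and 0.0473 with it, and by 2.24 and 2.53 in the replicate pairs. With the block this call held without stiff IPN replicate 1 and without either soft col:rBM library. It was lost without either soft IPN library, stiff IPN replicate 2 or either stiff col library, with an adjusted p of up to 0.482. Against soft col:rBM the pairs differed, with log2 values of 2.15 in replicate 1 and 0.07 in replicate 2 (mean 1.11 ± 0.57, limma adjusted p = 1.0 both ways). Between the soft gels it was replicate 2 that carried the difference, with log2 values of 0.05 and 1.80.

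EREG, epiregulin, a ligand of EGFR and ERBB4, was at 767 and 516 normalized counts in soft IPN, 1115 and 427 in stiff IPN, 653 and 557 in soft col:rBM and 1271 and 827 in stiff col. Replicate 1 was the higher of the pair in every gel, and the stiff IPN pair held both the lowest library and the second highest. Stiff col was 1.70-fold above soft col:rBM with no overlap (log2 0.76 ± 0.25, SE with the block), with a limma adjusted p of 1.0 with and without the block. Between stiff and soft IPN the pairs had opposite signs, 0.54 and -0.27.

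TGFA, which binds EGFR in place of EGF, was at 1342 and 2588 normalized counts in soft IPN, 1654 and 1099 in stiff IPN, 1842 and 2189 in soft col:rBM and 1540 and 1693 in stiff col. Its highest and lowest values, in soft IPN replicate 2 and stiff IPN replicate 2, came from the same trial. The stiff minus soft IPN difference was 0.30 in replicate 1 and -1.23 in replicate 2, a mean of -0.47 ± 0.34 (SE without the block) with limma adjusted p values of 0.663 without and 0.367 with the block. In collagen the stiff gel lay below the soft gel without overlap, by -0.31 ± 0.34.

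BTC and NRG1 were near the lower end of what could be tested. BTC, betacellulin, was at 21 and 17 normalized counts in soft IPN, 36 and 30 in stiff IPN, 24 and 10 in soft col:rBM and 30 and 23 in stiff col, so its lowest library rests on 11 reads. Its stiff IPN libraries did not overlap those of soft IPN (log2 0.77 ± 0.50, pairs 0.75 and 0.78), with limma adjusted p values of 0.622 without and 0.26 with the block. NRG1, the neuregulin that binds ERBB3 and ERBB4, was at 32 and 50 in soft IPN, 36 and 23 in stiff IPN, 36 and 55 in soft col:rBM and 57 and 54 in stiff col. Stiff col lay above stiff IPN without overlap (log2 0.92 ± 0.42), with adjusted p values (limma) of 0.788 without and 0.247 with the block.

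The receptors were then examined. EGFR, at chr7:55086710-55279321 (hg19), was at 2897 and 4199 normalized counts in soft IPN, 2778 and 1384 in stiff IPN, 3078 and 3618 in soft col:rBM and 2444 and 2983 in stiff col. Its replicates differed more in stiff IPN, with a ratio of replicate 2 to replicate 1 of 0.50, than in the other gels, where the ratio was 1.18 to 1.45. The mean difference between stiff and soft IPN was -0.83 ± 0.35 on the log2 scale, with limma adjusted p values of 0.53 without and 0.167 with the block, and it came from replicate 2 (-1.60) rather than replicate 1 (-0.06). With the block it was -0.15 once the second stiff IPN library was left out. Leaving out the first gave -1.51, the only one of 8 such fits in which the block called it (limma adjusted p = 0.00127 with the block and 0.287 without it). Stiff col minus stiff IPN had opposite signs in the pairs, -0.18 and 1.11.

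ERBB2 was the steadiest of the 10 genes, with a highest library 1.34-fold above its lowest. It was at 962 and 993 normalized counts in soft IPN, 938 and 923 in stiff IPN, 815 and 740 in soft col:rBM and 858 and 792 in stiff col. All 4 IPN libraries lay above all 4 collagen libraries. Soft col:rBM was below soft IPN by -0.33 ± 0.17 (log2) and stiff col below stiff IPN by -0.17 ± 0.17, and neither was called, with limma adjusted p values of 1.0 and 0.894 without the block and 0.991 and 0.522 with it.

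ERBB3 was low in all gels, at 77 and 59 normalized counts in soft IPN, 142 and 164 in stiff IPN, 68 and 42 in soft col:rBM and 79 and 63 in stiff col. As for HBEGF and EPGN, both stiff IPN libraries were above the other 6. The stiff minus soft IPN difference was 1.17 ± 0.28 (log2, SE with the block), 2.25-fold, and stiff col differed from stiff IPN by -1.10 ± 0.28. The limma adjusted p values were 0.492 and 0.601 without the block and 0.0611 and 0.0921 with it, so ERBB3 was not called in either. Without stiff IPN replicate 1 the block called both differences (limma adjusted p = 0.0124 and 0.016).

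The remaining receptor and ligand genes of the family were low or at 0. ERBB4 was at 0 in 7 libraries and at 1 normalized count in stiff IPN replicate 2, and NRG3 was at 0 in all 8, both below the 3-read floor. EGF itself was at 0 to 11, NRG2 at 9 to 26 and NRG4 at 32 to 63, which overlaps the 23 to 57 of NRG1. NRG2 and NRG4 entered the tests and were called in no comparison.

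Ranges that did not overlap between groups were counted as well. Stiff and soft IPN did not overlap for 6 of the 10 genes, against 41.9% of all genes tested. Stiff col and soft col:rBM did not overlap for 5 of 10 (background 19.0%), stiff col and stiff IPN for 6 of 10 (30.9%), and the soft gels for 3 of 10 (20.8%). The difference between the stiffness effect in collagen gels and that in IPNs was called for none of the 10 (limma adjusted p at least 0.367 with the block, background 0.015%). Without stiff IPN replicate 1 the block called it for EGFR, EPGN and EREG, against 4.95% of all genes. With all libraries, the difference for EPGN was -0.77 ± 0.28 (SE without the block), with an unadjusted p of 0.0263 (limma) and an adjusted p of 1.0. EPGN alone of the 10 was under an unadjusted 0.05 without the block (background 2.08%). For HBEGF the difference was -1.39 ± 1.18 (SE without the block), with an adjusted p of 1.0 (limma). With the block the SE was 0.24 for EPGN and 0.55 for HBEGF. EPGN and HBEGF were then the 2 of 10 under an unadjusted 0.05 (limma, background 9.89%), and neither was called.

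The ligands were also compared as a mixture, per kb of exon and without AREG. HBEGF made up 7.9% and 9.9% of the summed level of the other 6 ligands in soft IPN, 20.7% and 31.8% in stiff IPN, 2.7% and 10.6% in soft col:rBM and 3.9% and 15.7% in stiff col. Of these 6, TGFA was the largest part in soft IPN (40.0% and 57.2%), soft col:rBM (52.4% and 53.3%) and stiff col (37.7% and 41.2%), but in stiff IPN (29.4% and 19.9%) it was below EPGN (31.5% and 40.6%). This sum was 1144 and 1124 normalized counts per kb in stiff IPN and 683 to 920 in the other gels. The order depends on leaving out AREG, of whose reads an unknown share was lost: with it the sum was 1751 and 1284 in stiff col, 1339 and 1201 in stiff IPN and 883 to 1262 in the soft gels. AREG was then the largest part in stiff col, at 52.5% and 34.9%, ahead of TGFA at 17.9% and 26.8%. These shares are a description and rest on the same values as the tests above.

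**Figure D3:**
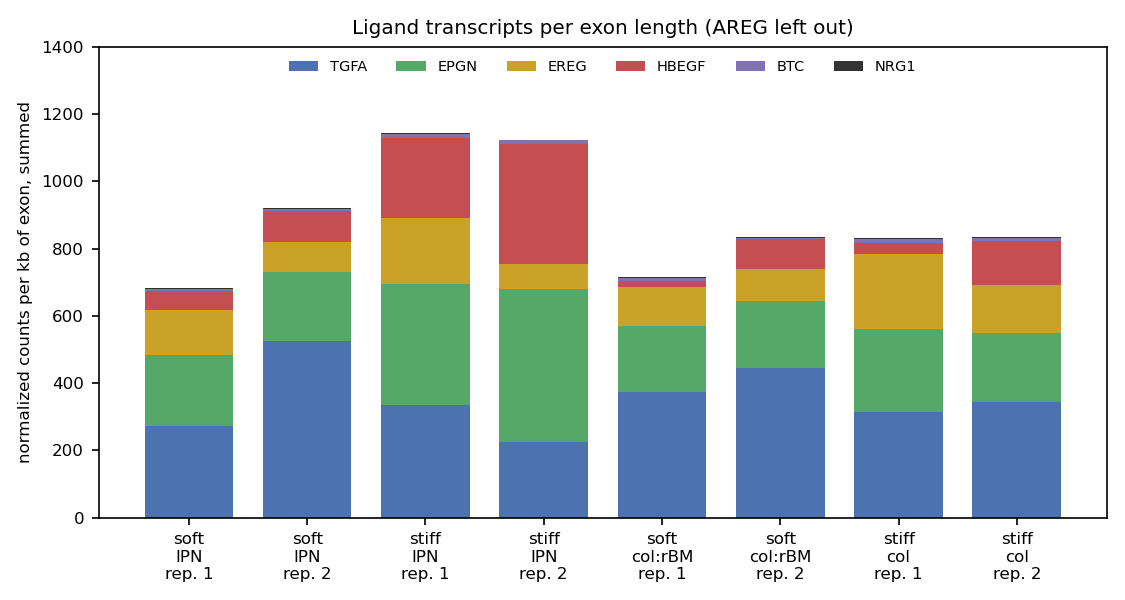
Stacked normalized counts per kb of exon of 6 ligand genes in each of the 8 libraries, without AREG. Without AREG the stiff IPN bars are the tallest, at 1144 and 1124, and have the thickest HBEGF and EPGN segments; with AREG the stiff col sums would be 1751 and 1284.

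Among the ligands, 4 are neighbours. EPGN (chr4:75174187-75182506), EREG (chr4:75230862-75254466), AREG and BTC (chr4:75669969-75719733) lie within 546 kb on hg19. Their patterns differed within that stretch. EPGN was highest in stiff IPN in both trials, AREG was highest in stiff col, and EREG was highest in stiff col in both trials with stiff IPN next to it in replicate 1 and lowest in replicate 2. BTC was highest in stiff IPN in both trials, at counts of 36 or less. HBEGF (chr5:139712428-139726188) and TGFA (chr2:70674416-70781325) lie on other chromosomes.

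**Figure D4:**
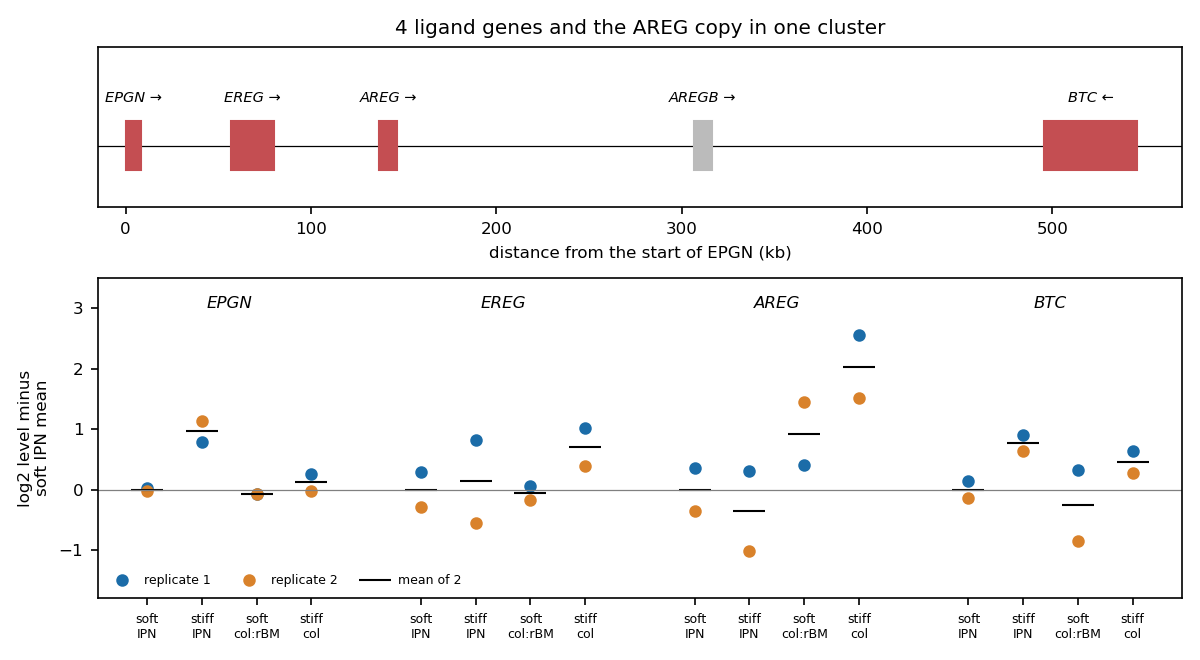
Top, the genes of the ligand cluster and the AREG copy by distance in kb from the start of EPGN, with arrows for strand. Bottom, log2 level of each of the 4 measured genes minus its soft IPN mean (dots for replicates, dash for the mean), in which EPGN peaks in stiff IPN and AREG in stiff col.

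Genes around the receptors were taken from fixed lists. Of 14 genes for ligand release (ADAM proteases, rhomboids and their inhibitors), 13 were found under their listed symbol, and 0 were called in any comparison between gels with or without the block. ADAM17, the main protease for several of these ligands and named for that role after its values were seen, differed by -0.12 between stiff and soft IPN and by 0.26 between stiff col and stiff IPN (log2). Of 25 adaptors and kinases below the receptors, 5 were up and 20 down in stiff against soft IPN, with a median log2 difference of -0.25 against -0.01 over all genes, and 0 were called. In stiff col against soft col:rBM 8 were up and 17 down, with a median of -0.08. Between stiff col and stiff IPN 1 of the 25 was called with the block, against 2.47% of all genes. It was BRAF, a kinase between RAS and MEK. BRAF was at 198 and 130 normalized counts in soft IPN, 129 and 56 in stiff IPN, 221 and 150 in soft col:rBM and 243 and 150 in stiff col. It was 2.23-fold higher in stiff col than in stiff IPN (limma adjusted p = 0.777 without and 0.0473 with the block), and 7 of 8 fits with a library left out lost that call, all but the fit without stiff IPN replicate 1 (adjusted p up to 0.347).

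Of 23 inhibitors and turnover factors of the receptors, 1 was called with the block between stiff and soft IPN, against 3.83% of all genes, with a list median of 0.08. ERRFI1, which binds and blocks the EGFR kinase, was at 5835 and 6597 normalized counts in soft IPN, 3910 and 2060 in stiff IPN, 6894 and 6145 in soft col:rBM and 5862 and 4230 in stiff col. Both stiff IPN libraries were below the other 6, and stiff IPN was 2.19-fold lower than soft IPN (limma adjusted p = 0.492 without and 0.0458 with the block). That call was lost without either soft IPN library, stiff IPN replicate 2 or either stiff col library (adjusted p up to 0.479), and without stiff IPN replicate 2 the log2 difference was smallest, at -0.74.

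Of 21 target genes of ERK, 4 were up and 17 down in stiff against soft IPN, with a median of -0.32 (log2). Of all 13349 genes tested, 6603 were up in that comparison. The tilt was not particular to the IPNs: in stiff col against soft col:rBM 3 were up and 18 down, with a median of -0.18. Between stiff and soft IPN 2 were called with the block, both lower, against 2.13% of all genes lower and 3.83% in either direction. FOS, a subunit of AP-1 that growth factors induce within minutes, was at 2078 and 1412 normalized counts in soft IPN, 1093 and 405 in stiff IPN, 1809 and 931 in soft col:rBM and 1489 and 812 in stiff col. It was 2.57-fold lower in stiff IPN (limma adjusted p = 0.518 without and 0.0255 with the block), and within each trial stiff IPN was the lowest of the 4 gels. The call was lost only without soft IPN replicate 2, a fit in which no gene at all was called. EGR1, another immediate early gene, was at 4628 and 1262 in soft IPN, 2530 and 637 in stiff IPN, 5310 and 876 in soft col:rBM and 3919 and 1110 in stiff col. Its trials differed more than its gels, and stiff IPN was 1.90-fold below soft IPN (limma adjusted p = 0.794 without and 0.0468 with the block), a call lost without any of the soft IPN or stiff col libraries. Between stiff col and stiff IPN 1 of the 21 was called with the block, against 2.47% of all genes. SPRY4, an inhibitor that ERK signalling induces, was at 1415 and 1270 in soft IPN, 917 and 839 in stiff IPN, 1940 and 1398 in soft col:rBM and 1926 and 1249 in stiff col. It was 1.77-fold higher in stiff col than in stiff IPN (limma adjusted p = 0.601 without and 0.0455 with the block), a call kept only without either stiff IPN library. In the same stiff IPN libraries HBEGF and EPGN were higher and FOS, EGR1 and ERRFI1 lower than in soft IPN.

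**Figure D5:**
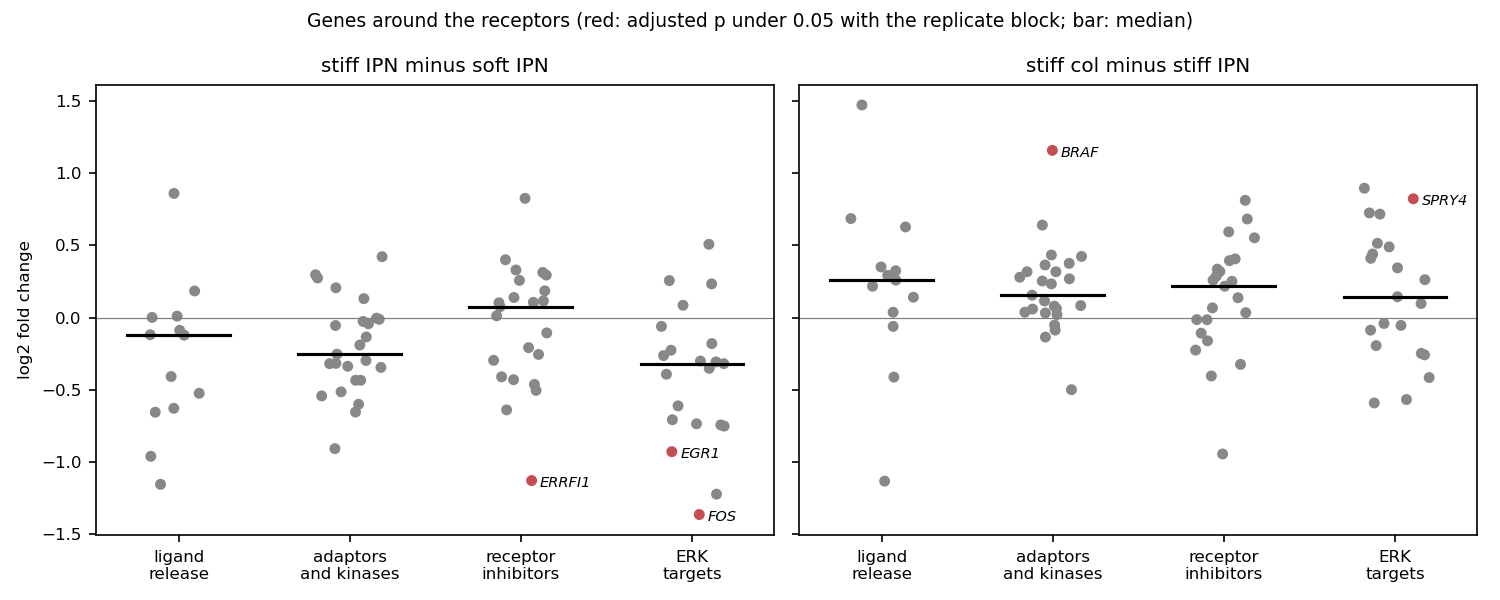
Log2 fold change of the genes of 4 lists between stiff and soft IPN (left) and between stiff col and stiff IPN (right). Each dot is a gene, bars mark list medians, and red marks an adjusted p under 0.05 with the replicate block: ERRFI1, EGR1 and FOS on the left, BRAF and SPRY4 on the right.

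Finally, the genes whose pattern over the 8 libraries was most like that of each member were listed, among genes with a mean of at least 100 normalized counts, by Pearson's r of the log2 values. The points share libraries, trials and gels, so r is a description. For each member the genes with the highest r were picked out of 9960 or 9961 searched, so a likeness in pattern follows from the choice. HBEGF was most like CASP1 (r = 0.99), NMI (0.98) and VEZT (0.98). CASP1, the protease that activates interleukin 1 beta, was at 298 and 350 in soft IPN and 508 and 597 in stiff IPN. It was at 188 and 391 in soft col:rBM and 236 and 395 in stiff col. The genes most like EPGN included FDPS (0.98) and CCDC93 (0.98), of which FDPS, an enzyme of the cholesterol pathway, was at 14303 and 26286 in stiff IPN and 5571 to 9053 in the other gels. ERBB3 was most like IFIH1 (0.98), FAP (0.98) and PPP1R7 (0.97). EGFR was most like SLC16A1 (0.99), VEGFA (0.98) and RRM1 (0.98), and TGFA was most like SDC1, ETS1 and AMOTL1 (all 0.97). For AREG the genes were ZNF623 (0.97), DSTYK (0.94) and WHSC1L1 (0.94), and for EREG they were PEX13 (0.98), CASK (0.96) and ITGA4 (0.95). NRG1 was most like ETV3, EXOC6B and ZBED6 (all 0.97), ERBB2 like PIK3CD (0.95), BRK1 (0.94) and PSME1 (0.93), and BTC like C11orf54 (0.92), PLAA (0.91) and ARHGAP29 (0.91).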

How the data were processed

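RNA-seq libraries (TruSeq RNA v2, paired-end reads of 50 bases) were made from gels with MCF10A cells, and groups were taken from the sample labels. The authors trimmed reads with Trim Galore 0.3.3, aligned them to hg19 (Bowtie2 in the study's methods; the submitters' processing notes list TopHat2 2.0.13 and SAMtools 1.1), discarded reads that were unmapped, of low quality or placed at several sites, and counted the rest per gene with HTSeq; whether strand was used is not given in the sources used here. The deposited values are a signal, which the authors made by scaling counts by 1 factor per library and rounding. The factors, as multipliers of the read counts, were 0.8037 to 1.2418 and were read from the spacing of the values. Because the deposited values are scaled and rounded, a count model was not used. Instead limma 3.58.1 (R 4.3.3, mean-variance trend, robust) was run on log2(normalized count + 1), with 1 mean per gel. It covered the 13349 genes at 10 or more in at least 2 libraries. 28 rows whose symbols had become dates were left out. An adjusted p under 0.05 was called.

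The labels give only a replicate number, which was taken to mark the 2 independent trials that the study describes. Differences of replicate 2 minus replicate 1 correlated between all 6 pairs of gels (r of 0.28 to 0.82). The correlation shows that libraries of the same replicate number share something, but not whether it is the culture or a later step. It was weakest for stiff IPN, with r of 0.28 with soft IPN, 0.39 with soft col:rBM and 0.40 with stiff col. The pairs without stiff IPN gave 0.65 to 0.82. Each member called with the block between 2 gels was called against stiff IPN, where this pairing was weakest. The fit with the replicate block is given wherever it changed a call. Beyond naming biological replicates and independent trials, the study does not say how separate the cultures were. The p-values therefore measure the spread between these libraries. An exact permutation test of 2 against 2 libraries cannot go below 0.333. Exon lengths and gene positions came from GENCODE lifted to hg19. The rule for naming genes took all 10 members, up to 3 called genes of each pathway list by size of change, and the 3 genes most like each member, of which 1 is not reported here. Members and lists were chosen with earlier results of these data known. The procedure was tested on simulated data. Alternatives were other pseudocounts (0.5 and 5), scalings and filters, fits of only the gels compared, and each library left out in turn; the block in combination with these was added after seeing the data.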

Additional observations from a re-analysis of the deposited data

Results flagged for a closer look

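For 2 of the 10 genes the stiff minus soft difference had one sign in both trials of the IPNs and the other sign in both trials of the collagen gels. For AREG the IPN differences were -0.04 and -0.66 (log2) and the collagen differences 2.15 and 0.07, a difference between gel systems of 1.46 ± 0.81 with a limma adjusted p of 1.0 without the block and 0.529 with it. ERBB2 showed values of -0.04 and -0.11 in the IPNs and 0.07 and 0.10 in the collagen gels, a difference of 0.16 ± 0.23 with a limma adjusted p of 1.0 without the block and 0.825 with it. In both genes several of these values are close to 0. The test of the difference itself was not passed by either gene. No group had 4 or more libraries, so none could be examined for a library far from the rest.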

How the results depend on the processing

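Counts of called genes depended on the replicate block and on single libraries. With the replicate block the number of the 10 genes called went from 0 to 2 between stiff and soft IPN, from 0 to 3 between stiff col and stiff IPN and from 0 to 1 among the 4 gels together. Adding other pseudocounts or scalings to the block gave the same numbers. The block without a filter gave 2, 2 and 2, and the block with a mean of at least 50 gave 2, 1 and 0. Over all genes the block called 511, 330 and 208 in these comparisons and 2 for the difference between gel systems, against 0 without it. Without the block, fitting only the gels compared called 1 gene between stiff and soft IPN, and a pseudocount of 5 called 4 between stiff col and stiff IPN. With the block, HBEGF was called between stiff col and stiff IPN in 7 of 7 such settings, EPGN in 6 and AREG in 5, and the blocked fit changed no call other than those given above. Leaving out 1 library at a time, which assumes that the lone library of a gel varies like the rest, gave 0 to 5 called members between stiff and soft IPN, 0 to 7 between stiff col and stiff IPN, 0 to 3 for the difference between gel systems, 0 to 6 among the 4 gels and 0 to 4 between trials. Over all genes it gave, without the block, 0 to 5 called genes between stiff col and stiff IPN, and 36 to 2188 with it, while the block gave 0 to 2666 between stiff and soft IPN. Between trials it gave 1206 to 5830 called genes. The most members were called without stiff IPN replicate 1, with the block, a fit that also called 20.1%, 16.5%, 4.95% and 15.1% of all genes in the first 4 of these comparisons. Leaving out either stiff IPN library gave the 4 members between trials, where 5830 and 5797 of all genes were called.

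Log2 differences turned sign when libraries were left out, and in no other setting, for members that were not called. Between stiff and soft IPN the ranges were -1.01 to 0.31 for AREG, -0.56 to 0.82 for EREG, -0.96 to 0.04 for NRG1 and -0.98 to 0.05 for TGFA. Between stiff col and stiff IPN they were -0.22 to 1.14 for EGFR, -0.12 to 1.26 for EREG and -0.26 to 0.78 for TGFA, and between stiff col and soft col:rBM -0.44 to 1.74 for HBEGF. Between the soft gels they were -0.11 to 1.95 for AREG, -0.86 to 0.33 for BTC, -0.41 to 0.28 for EGFR, -0.67 to 0.01 for ERBB3, -0.38 to 0.25 for EREG, -1.84 to 0.33 for HBEGF, -0.18 to 0.48 for NRG1 and -0.40 to 0.62 for TGFA. For the difference between gel systems they were -0.64 to 0.54 for BTC, -0.15 to 1.20 for EGFR, -0.06 to 1.32 for EREG and -0.36 to 0.67 for TGFA. Between trials they were -0.16 to 0.35 for EGFR, -0.11 to 0.10 for EPGN, -0.03 to 0.38 for NRG1 and -0.07 to 0.44 for TGFA. The cause was not tested. With 2 libraries a gel, small differences were not detectable. BTC rests on as few as 11 reads, but EGFR, at 1384 or more normalized counts in every library, turned sign as well.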
